A study of Mus musculus with 3 samples.

Results

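The genes described here are 10 genes of the epithelial-mesenchymal transition, picked by name from the 47480 gene symbols measured in 3 mammary tumours of the mouse. They comprise 2 epithelial adhesion genes (Cdh1 and Epcam), 2 mesenchymal genes (Vim and Cdh2) and 6 transcription factor genes (Zeb1, Zeb2, Snai1, Snai2, Twist1 and Twist2). All 10 had reads in every tumour and passed the filter on low counts, as did 12710 genes in all. The tumours were of the strain FVB-MMTV-Neu, in which the mouse mammary tumour virus promoter drives a Neu (Erbb2) oncogene in the mammary epithelium. All received no treatment and belong to 1 group, so the data give levels and the spread between tumours and no comparison of conditions. The sample labels describe orthotopic transplants into syngeneic hosts that were left for 7 days after reaching 5 mm, whereas the series' design text speaks only of tumours from untreated mice. Stroma of a transplant can come from the host. Whether the tumours, called tumours 1, 2 and 3 in the order of deposition, came from separate donor mice is not stated, and the animals' age is not given in the labels.

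In an epithelial-mesenchymal transition, cells loosen their contacts with neighbours and take on a motile form. Cdh1 encodes E-cadherin, the adhesion molecule of epithelial adherens junctions, and Epcam encodes another adhesion protein of the epithelial surface. Vim encodes vimentin, the intermediate filament of mesenchymal cells, which fibroblasts, endothelium and white blood cells carry too, and Cdh2 encodes N-cadherin. The ZEB and SNAIL families are zinc finger repressors that bind E-boxes, among them those of the E-cadherin promoter. The TWIST factors are basic helix-loop-helix proteins that bind E-boxes as dimers with E proteins.

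Because these factors act through E-boxes, the 250 bases before the start site were searched for the E-box CACCTG and its reverse complement CAGGTG, which covers both strands. The RefSeq promoter table of GRCm38.p6 held entries for 6 of the 10 genes. The promoters of Epcam and Snai1 are shown because they held the motif, and those of Twist1 and Twist2 because these paralogs were farthest apart in the tumours. Capitals mark the motif, and all 4 lie on the plus strand, at chr17:87635729-87635978 for Epcam, chr2:167537945-167538194 for Snai1, chr12:33957421-33957670 for Twist1 and chr1:91801211-91801460 for Twist2.
Epcam: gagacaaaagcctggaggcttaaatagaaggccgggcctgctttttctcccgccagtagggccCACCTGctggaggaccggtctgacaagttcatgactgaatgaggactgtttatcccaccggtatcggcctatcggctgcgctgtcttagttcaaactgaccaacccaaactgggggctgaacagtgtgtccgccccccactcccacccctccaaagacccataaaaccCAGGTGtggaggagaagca
Snai1: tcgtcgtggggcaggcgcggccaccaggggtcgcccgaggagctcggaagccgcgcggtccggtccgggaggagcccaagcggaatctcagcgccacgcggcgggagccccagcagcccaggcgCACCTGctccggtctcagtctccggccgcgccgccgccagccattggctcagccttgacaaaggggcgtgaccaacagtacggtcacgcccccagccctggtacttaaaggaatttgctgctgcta
Twist1: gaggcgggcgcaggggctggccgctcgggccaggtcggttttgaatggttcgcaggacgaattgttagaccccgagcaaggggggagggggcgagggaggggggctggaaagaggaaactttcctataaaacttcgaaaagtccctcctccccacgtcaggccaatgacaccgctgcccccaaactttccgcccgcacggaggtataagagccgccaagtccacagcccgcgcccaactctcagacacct
Twist2: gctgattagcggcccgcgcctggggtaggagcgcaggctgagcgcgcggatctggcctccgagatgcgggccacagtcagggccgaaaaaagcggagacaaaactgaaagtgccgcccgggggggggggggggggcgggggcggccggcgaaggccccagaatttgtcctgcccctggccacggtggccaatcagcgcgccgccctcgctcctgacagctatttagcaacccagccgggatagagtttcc
The Epcam window held 2 matches, beginning 187 and 19 bases before the start site, and the Snai1 window held 1, beginning 126 bases before it. None of the windows of Twist1, Twist2, Vim and Zeb2 held these letters. Of 32851 promoter windows of the same length, 17.2% held at least 1 such E-box and 2.06% held at least 2. A match describes the sequence and does not show binding.

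Estimated counts summed to between 11388769 in tumour 2 and 47449153 in tumour 1. The counting error is smallest for Cdh1, Epcam and Vim and larger for the factor genes and Cdh2. Levels are given as CPM, counts relative to the library total, after scaling of those totals by the trimmed mean of M values (TMM), and intervals are 95% Poisson intervals, which cover counting error only. Tumour 1 differed from the others in ways that are not particular to these genes. It was read in lane 1 and the others in lane 5 of the same run, ribosomal Rn18s-rs5 took 0.200% of its counts against 7.87 and 6.68%, and 8 skeletal muscle markers took 0.000709% against 3.52 and 2.04%. Lane, muscle content and tumour 1 cannot be told apart. The luminal keratin genes Krt8 (407, 734 and 1038 CPM in tumours 1, 2 and 3) and Krt18 (461, 245 and 453 CPM) were abundant in each library, as the tissue label has it.

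Per kilobase of the longest transcript, Vim stood highest at a mean level of 237 ± 59.5 CPM per kb (SD, n = 3), followed by Epcam at 125 ± 68.6 and Cdh1 at 32.7 ± 2.54. These 3 genes held the first 3 places in every tumour. The factor genes and Cdh2 lay far lower. Snai1 was at 8.24 ± 2.62 CPM per kb, Twist2 at 7.24 ± 6.41, Twist1 at 7.15 ± 3.32 and Snai2 at 4.32 ± 0.698. Zeb2 was at 3.14 ± 2.03 CPM per kb, Cdh2 at 1.77 ± 0.785 and Zeb1 at 1.56 ± 0.621. Among neighbours in this order, Epcam lay above Cdh1, Cdh1 above Snai1 and Twist1 above Snai2 in 3 of 3 tumours, and every other pair of neighbours changed places in at least 1 tumour. With the mean length of the coding transcripts in place of the longest, Zeb2, which has many short ones, moved from place 8 to place 4, and the first 3 places stayed as they were.

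**Figure D1:**
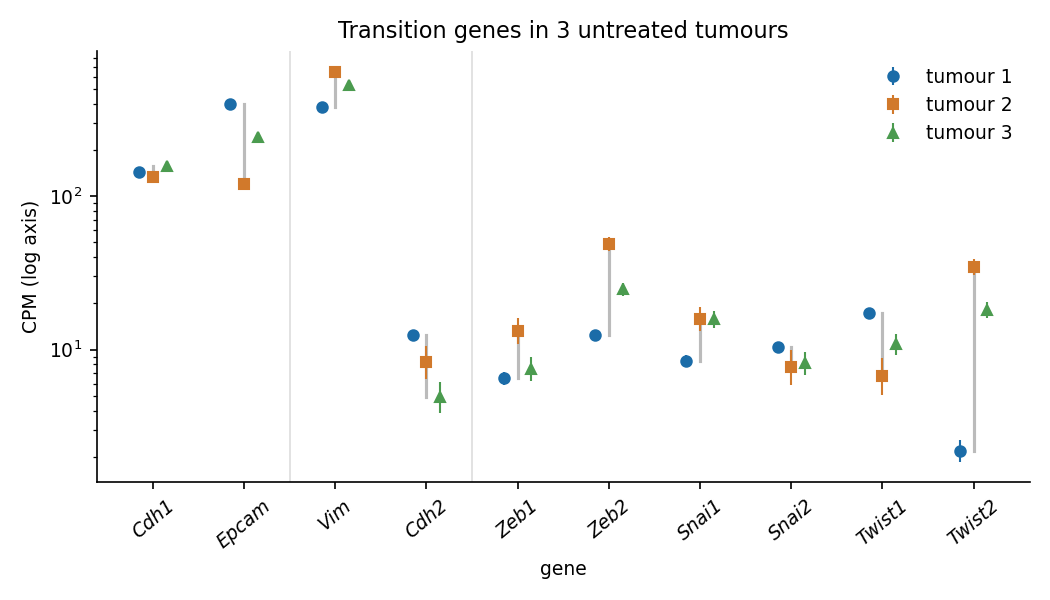
Levels of the 10 genes in each tumour, as TMM-scaled CPM on a log axis, with 95% Poisson intervals for counting error and a grey line from the lowest to the highest tumour. Cdh1 lies between 134 and 157 CPM in all 3 tumours, whereas Twist2 runs from 2.18 CPM in tumour 1 to 34.6 CPM in tumour 2.

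E-cadherin transcripts were close in level in the 3 tumours with TMM scaling. Cdh1 (chromosome 8, 106603351 to 106670246) had 9970, 1079 and 2464 counts in tumours 1, 2 and 3. Its level was 144 CPM (interval 141 to 147), 134 CPM (126 to 142) and 157 CPM (150.5 to 163), or 145 ± 11.3 CPM (SD, n = 3). The intervals of tumours 1 and 2 overlapped, and the highest tumour was 1.17-fold above the lowest. The SD of its log2 CPM was 0.11, and 2.66% of all genes past the filter had an SD as small or smaller. The range of Cdh1 on the log2 scale, 0.22 with TMM, was the narrowest of the 10 with TMM and with DESeq2 size factors. It was 1.14 with library totals, where that of Vim was 0.29, and 0.44 with the trend with GC content and transcript length removed, where those of Snai1, Snai2 and Vim were smaller.

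Epcam did not keep to that level. Epcam (chromosome 17, 87635979 to 87651129) had 27591, 962 and 3837 counts, which gave 399 CPM (394 to 404), 119.6 CPM (112 to 127) and 244 CPM (236 to 252), or 254 ± 139.9 CPM. The 3 intervals were apart from one another, with tumour 1 highest, tumour 3 between and tumour 2 lowest. Epcam in tumour 2 was at least 2-fold below both other tumours, as were 7.14% of all genes past the filter. That call ended with DESeq2 size factors and with the GC and length trend removed, where tumour 3 exceeded tumour 2 by 0.96 and 0.99 on the log2 scale, against 1.03 with TMM. With library totals it held, at 1.40, as did such a call for 17.2% of all genes. With TMM, tumour 3 stood 2.04-fold above tumour 2, which shared its lane, and 8.81% of all genes were at least 2-fold higher in tumour 3 on that comparison. The count ratio of Epcam to Cdh1, which no scaling of libraries can alter, was 2.77 in tumour 1, 0.892 in tumour 2 and 1.56 in tumour 3.

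Vimentin transcripts were abundant in each tumour. Vim (chromosome 2, 13573927 to 13582826) had 26530, 5180 and 8350 counts, or 384, 644 and 531 CPM, with a mean of 519 ± 131 CPM. With TMM scaling tumour 2 was highest and tumour 1 lowest, 1.68-fold apart, and the counting intervals (379 to 388, 626 to 662 and 519 to 542 CPM) did not overlap. In bulk tissue, fewer cells of a type and less RNA per cell cannot be told apart, and Vim comes from several cell types. Of 8 fibroblast markers, 6 were lowest in tumour 1 with TMM scaling, as were 41.6% of all genes, and 3 with library totals alone, as were 24.2%. Their summed level was 1586 CPM in tumour 1, 2477 CPM in tumour 2 and 1722 CPM in tumour 3. Their part in the Vim values was not tested. The log2 ratio of Vim to the collagen gene Col1a2, the most abundant of these markers, was −1.68, −1.49 and −1.06 in tumours 1, 2 and 3.

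The N-cadherin gene Cdh2 (chromosome 18) was scarce, with 864, 67 and 77 counts. Its level was 12.5 CPM in tumour 1 (11.7 to 13.4), 8.33 CPM in tumour 2 (6.45 to 10.6) and 4.89 CPM in tumour 3 (3.86 to 6.12), or 8.57 ± 3.80 CPM. Tumour 1 was highest and the intervals of tumour 1 and the others did not overlap. The skeletal muscle markers were lowest in tumour 1, with the shares given above, but like Cdh2 were higher in tumour 2 than in tumour 3. Their part in the Cdh2 values was not tested. With TMM scaling tumour 1, the highest for Cdh2 (as for 47.1% of all genes), was the lowest for Vim (as for 41.6%). With library totals tumour 1 exceeded the mean of the others for both, by 1.80 for Cdh2 and 0.24 for Vim on the log2 scale. Reads of Cdh1 outnumbered those of Cdh2 in each tumour, with count ratios of 11.5, 16.1 and 32.0 on transcripts of similar length (4430 and 4843 bases).

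The log2 ratio of Cdh1 to Vim was −1.41, −2.26 and −1.76, with a mean of −1.81 ± 0.43 (SD, n = 3). Vim had the more reads in each tumour. That of Epcam to Vim ran from 0.06 in tumour 1 through −1.12 in tumour 3 to −2.43 in tumour 2. With the GC and length trend removed, the ratio of Cdh1 to Vim was −1.84, −2.05 and −1.55 in tumours 1, 2 and 3, so that tumour 3 was highest, whereas that of Epcam to Vim was still highest in tumour 1.

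**Figure D2:**
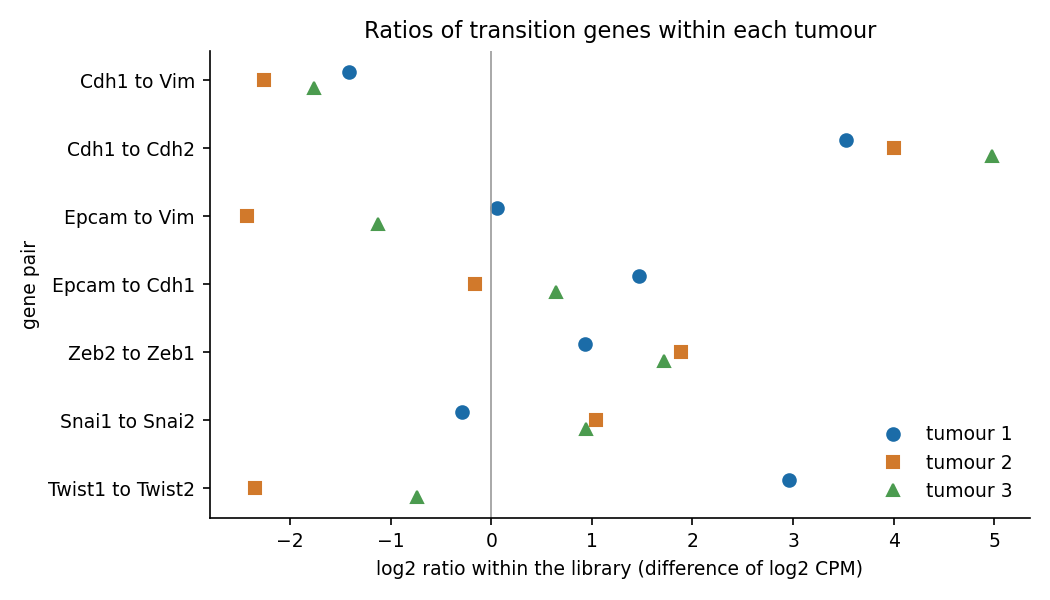
Log2 ratio of 2 transition genes within each library, for 7 gene pairs, with 1 symbol per tumour. The ratio of Twist1 to Twist2 runs from −2.35 in tumour 2 to 2.96 in tumour 1 and spans the widest range of the 7 pairs, while that of Cdh1 to Vim stays between −2.26 and −1.41.

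With TMM scaling, the ZEB genes shared an order in which tumour 2 was highest and tumour 1 lowest. Zeb2 (chromosome 2, 44983632 to 45117395) had 862, 393 and 389 counts and was at 12.5 CPM (11.6 to 13.3), 48.8 CPM (44.1 to 53.9) and 24.7 CPM (22.3 to 27.3), or 28.7 ± 18.5 CPM. The intervals were apart, and the highest tumour lay 3.92-fold above the lowest. Zeb1 (chromosome 18) had 449, 106 and 118 counts and was at 6.49, 13.2 and 7.50 CPM, or 9.05 ± 3.60 CPM. Here tumours 1 and 3 overlapped in their intervals (5.90 to 7.12 and 6.21 to 8.98 CPM), and tumour 2 was 2.03-fold above tumour 1. Zeb2 had 1.92, 3.71 and 3.30 reads for each read of Zeb1.

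The order of the Zeb2 values was also that of the summed endothelial markers, at 169, 1119 and 412 CPM over 7 genes. All 7 were highest in tumour 2 with TMM scaling (35% of all genes) and 4 with library totals alone (17% of all genes), with Pecam1 at 56.4, 775 and 231 CPM and Emcn at 15.7, 141 and 71.2 CPM. The sum of 5 pericyte markers was 179, 446 and 221 CPM. That of 6 macrophage markers was 655, 741 and 658 CPM, with Lyz2 at 478, 222 and 264 CPM and Csf1r at 82.5, 229.8 and 203 CPM. None of these markers was at 0 in any tumour, and their part in the Zeb2 values was not tested. Zeb2 is overlapped by the antisense gene Zeb2os over 653 exon bases. The files list 121, 83.2 and 122 counts for Zeb2os, and without a stated strand setting reads of the pair cannot be told apart there.

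The SNAIL genes differed less. Snai1 (chromosome 2, 167538195 to 167542814), with 584, 128 and 247 counts, was at 8.44, 15.9 and 15.7 CPM, or 13.3 ± 4.25 CPM. Tumours 2 and 3 overlapped in their intervals and tumour 1 lay below both (7.77 to 9.16 CPM). Snai2 (chromosome 16, 14705852 to 14709385), which encodes the SLUG protein, had 715, 62 and 128 counts and was at 10.3, 7.71 and 8.14 CPM, or 8.73 ± 1.41 CPM. Its intervals (9.59 to 11.1, 5.91 to 9.88 and 6.79 to 9.67 CPM) overlapped between all tumours. Snai1 had 0.817 reads for each read of Snai2 in tumour 1, 2.06 in tumour 2 and 1.93 in tumour 3. Snai2 is also a gene of basal mammary cells. The 5 basal markers all exceeded both others at least 2-fold in tumour 1, against 22.1% of all genes. They were led by Krt14 at 107, 12.4 and 6.74 CPM and Krt5 at 64.4, 1.62 and 1.46 CPM. The highest tumour for Snai2 was 1.34-fold above the lowest, and the part of basal cells in the Snai2 values was not tested.

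The TWIST genes went opposite ways. Twist2 (chromosome 1, 91801461 to 91848028) had 151, 278 and 285 counts and was at 2.18 CPM in tumour 1 (1.85 to 2.56), 34.6 CPM in tumour 2 (30.6 to 38.9) and 18.1 CPM in tumour 3 (16.1 to 20.3). Tumour 1, with the deepest library of the 3, had the fewest Twist2 reads. Tumour 2 was 15.8-fold and tumour 3 8.30-fold above tumour 1. Twist1 (chromosome 12, 33957671 to 33959829), with 1205, 54 and 170 counts, was at 17.4 CPM (16.4 to 18.4), 6.71 CPM (5.04 to 8.76) and 10.8 CPM (9.24 to 12.6), or 11.6 ± 5.40 CPM, and so was highest where Twist2 was lowest. Twist1 had 7.98 reads for each read of Twist2 in tumour 1, 0.194 in tumour 2 and 0.596 in tumour 3. Within the lane of tumours 2 and 3 the order held, with Twist2 1.91-fold higher in tumour 2 and Twist1 1.61-fold higher in tumour 3. The predicted gene Gm29100 overlaps Twist2 on the opposite strand over 1477 bases, and the files list 10.9 counts for it in tumour 1 and 0 in the others.

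Twist2 was the 1 gene of the 10 whose highest and lowest tumours were at least 4-fold apart, against 29.5% of all genes past the filter. It was also the 1 member at least 2-fold below both others in tumour 1, as 20.7% of all genes were, while 0 of 10 exceeded both others there by at least 2-fold, against 22.1% of all genes. In tumour 2, 1 of 10 (Epcam) lay at least 2-fold below both others (7.14% of all genes) and 0 above (5.43%), and in tumour 3, 0 lay above (0.865%) and 0 below (1.35%). With DESeq2 size factors and with the GC and length trend removed, the counts in tumour 2 turned to 0 below and 1 above (Zeb2). The shares of all genes were 6.1% below and 6.7% above with DESeq2 size factors, and 5.53 and 5.41% with the trend removed. With library totals alone, 2 of the 10 lay below (17.2%) and 0 above (1.48%). With TMM scaling, tumour 2 was highest for 5 of the 10 (35% of all genes), tumour 1 for 4 (47.1%) and tumour 3 for 1 (17.9%). With library totals alone tumour 1 was highest for 7, as it was for 66.4% of all genes, and tumour 2 for 2 (17%). Tumour 1 was lowest for 2 with library totals (24.2%) and for 5 with TMM scaling (41.6%). With TMM scaling, tumour 2 was lowest for 4 (39.6%) and tumour 3 for 1 (18.8%). The median range of log2 CPM was 1.18 over the 10 genes and 1.37 over all genes. At 3.92-fold, Zeb2 lay just short of the 4-fold limit, and Epcam followed at 3.34-fold. Between tumours 2 and 3 alone, 1 of 10 was at least 2-fold higher in tumour 3 (8.81%), 0 were at least 2-fold lower (7.39%) and 0 were 4-fold apart (1.2%). With DESeq2 size factors the first of these counts became 0 (7.66% of all genes) and the second 1 (8.75%). With the GC and length trend removed they also became 0 (6.67%) and 1 (7.42%). For Zeb2, tumour 3 minus tumour 2 was −1.05 and −1.10 on the log2 scale in turn. With library totals alone, that difference was 1.40 for Epcam, 1.05 for Twist1 and −0.61 for Zeb2, the lowest of the 10. There, 19.1% of all genes were at least 2-fold higher in tumour 3 and 2.71% at least 2-fold lower.

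**Figure D3:**
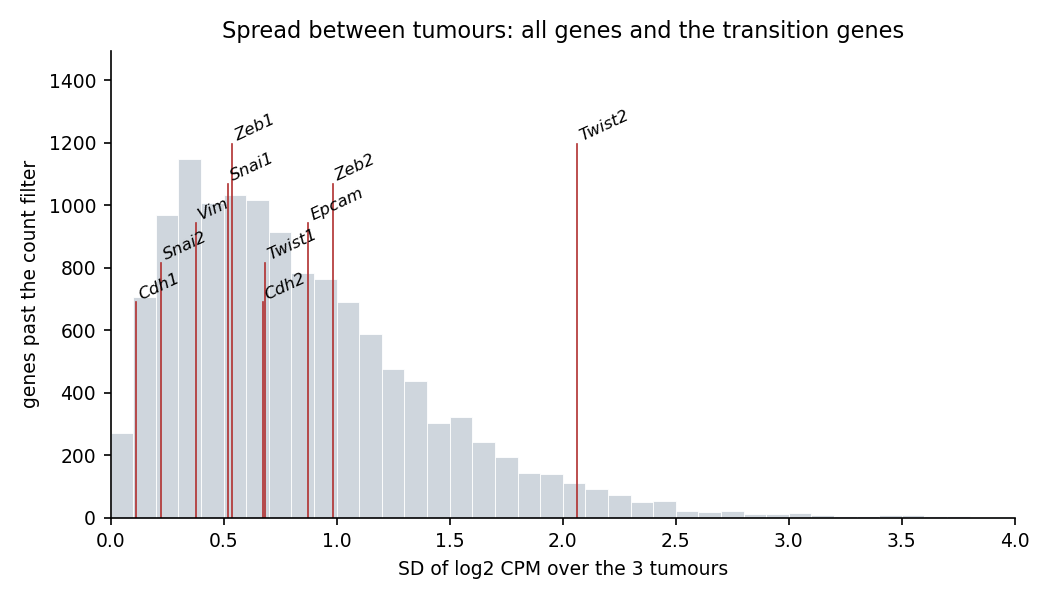
Histogram of the SD of log2 CPM over the 3 tumours for genes past the count filter, drawn up to an SD of 4, with a red line at each of the 10 genes. Cdh1, at an SD of 0.11, lies at the lower end, and Twist2, at 2.06, lies beyond 96.2% of all genes.

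How tumour 1 compares with the others depends on the scaling for several members. Scaling by library totals alone shifts the median difference of all genes in tumour 1 by 0.84 on the log2 scale. Under TMM, the log2 level of tumour 1 minus the mean of the others was 1.22 for Epcam, 1.03 for Twist1, 0.96 for Cdh2, −1.48 for Zeb2 and −3.48 for Twist2. These 5 kept their sign under DESeq2 size factors, library totals and removal of the trend with GC content and transcript length. With library totals, Vim turned from −0.61 to 0.24, Zeb1 from −0.61 to 0.23 and Cdh1 from −0.01 to 0.84. With the GC and length trend removed, Snai1 turned from −0.90 to 0.22 and Snai2 from 0.38 to −0.08.

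**Figure D4:**
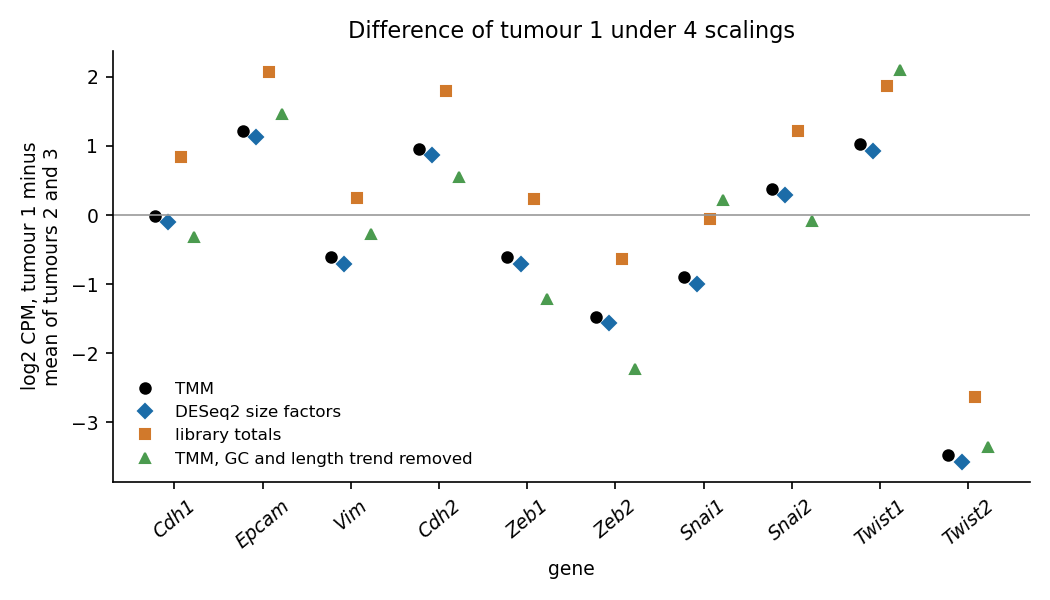
Log2 CPM of tumour 1 minus the mean of tumours 2 and 3 for each of the 10 genes, with 1 symbol for each of 4 scalings. Epcam, Cdh2 and Twist1 lie above 0 and Zeb2 and Twist2 below 0 in all 4, while Cdh1, Vim, Zeb1, Snai1 and Snai2 cross 0.

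Partners of these adhesion molecules differed in direction. Of 9 genes for cadherin and EpCAM partners, 8 passed the filter, 4 exceeded both others at least 2-fold in tumour 1 (22.1% of all genes) and 1 fell short of both at least 2-fold (20.7%). The median difference of tumour 1 was 1.04 on the log2 scale, against 0.11 for all genes. The β-catenin gene Ctnnb1, whose product ties E-cadherin to the cytoskeleton, was at 643, 77.2 and 114 CPM in tumours 1, 2 and 3. The plakoglobin gene Jup was at 223, 89.6 and 104 CPM. Cldn7, a claudin that binds EpCAM, went the other way at 136, 278 and 382 CPM, and so did the nectin gene Pvrl2 at 53.1, 171 and 93.3 CPM.

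Of 20 epithelial state genes, which are epithelial transcription factors, splicing regulators, polarity and junction genes, 19 passed the filter. In tumour 1, 9 exceeded both others at least 2-fold (22.1% of all genes) and 1 was at least 2-fold lower (20.7%), and in tumour 2, 6 were at least 2-fold below both others (7.14% of all genes). The last direction is also that of Epcam. Grhl2, an activator of epithelial genes, was at 44.5, 2.98 and 7.25 CPM. The gene below was the epithelial transcription factor Elf3, at 24.5 CPM against 169.9 and 185 CPM. The protease gene St14 was at 192, 292 and 323 CPM and the tricellular junction gene Lsr at 157, 227 and 307 CPM. The list's median difference of tumour 1 was 1.15 with TMM, 1.05 with DESeq2 size factors, 2.00 with library totals and 1.73 without the GC and length trend.

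All 22 mesenchymal program genes passed the filter. In tumour 1, 7 were at least 2-fold below both others (20.7% of all genes) and 1 at least 2-fold above (22.1%). In tumour 2, 16 of 22 were highest, as Vim was, against 35% of all genes, or 10 of 22 with library totals alone, against 17%. The median difference of tumour 1 was −1.02, and −0.18 with library totals, where 3 were below (10.5% of all genes) and 6 above (40.4%). The collagen genes Col1a1 (1576, 3695 and 1625 CPM) and Col3a1 (965, 566 and 402 CPM) differed in order. Des, which encodes the desmin of muscle, had the largest range at 11.2, 3185 and 1701 CPM, and the skeletal muscle markers had that order too, with Ckm at 0.477, 32750 and 11606 CPM.

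Low levels in tumour 1 like that of Twist2 were seen in other transition factors. Of 16, 13 passed the filter, and 6 were at least 2-fold below both others in tumour 1 (20.7% of all genes) while 0 were above (22.1%). With library totals these counts were 5 (10.5% of all genes) and 2 (40.4%). The inhibitor gene Id3, whose product sequesters E proteins, was at 19.6, 426 and 354 CPM. The chromatin protein gene Hmga2 was at 3.95, 104 and 83.4 CPM and Sox4 at 101, 318 and 283 CPM.

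Partners and regulators of the factors were measured as 17 genes, all past the filter. In tumour 1, 6 exceeded both others at least 2-fold (22.1% of all genes) and 1 was lower by that much (20.7%), with a median difference of 1.25. The corepressor gene Ctbp1, through which ZEB proteins act, was at 252, 324 and 301 CPM, and its paralog Ctbp2 at 149 CPM against 14.2 and 16.9 CPM. The E protein genes, whose products pair with TWIST proteins, differed in order. Tcf3 (115, 38.8 and 59.7 CPM) and Tcf12 (76.3, 18.0 and 19.1 CPM) were highest in tumour 1, as Twist1 and 47.1% of all genes were. Tcf4 (36.2, 168 and 96.3 CPM) was highest in tumour 2, as Twist2, Zeb2 and 35% of all genes were.

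Of 14 genes for inducing signals, 12 passed the filter, of which 7 exceeded both others at least 2-fold in tumour 1 (22.1% of all genes) and 0 lay below (20.7%). The median difference was 1.80 with TMM and 1.16 without the GC and length trend. The gene with the largest range was Tgfb2, at 27.9, 2.11 and 3.56 CPM. The ligand gene Tgfb1 was even with TMM scaling, at 48.9, 48.7 and 52.6 CPM. The signal transducer gene Smad3 was at 80.8, 84.8 and 62.9 CPM, 1.35-fold from lowest to highest. The ligand gene Pdgfa was at 78.5, 67.0 and 57.1 CPM, 1.37-fold from lowest to highest.

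**Figure D5:**
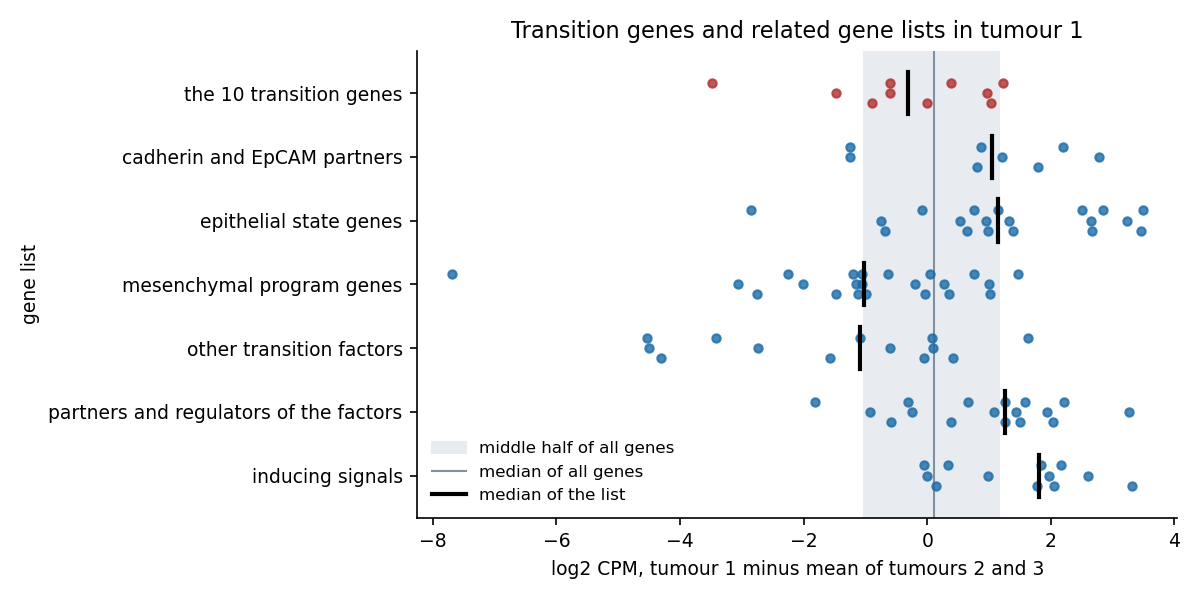
Log2 CPM of tumour 1 minus the mean of tumours 2 and 3 for the 10 genes and for 6 related lists, with 1 point per gene past the filter, a black bar at each list's median and a grey band over the interquartile range of all genes (−1.02 to 1.16). The 10 genes have a median of −0.31 and lie on both sides of 0, and 4 of the 6 lists have medians above 1.

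Genes that follow the pattern of a member over 3 tumours are many, so likeness says little here. Among 9074 genes with a mean level of at least 10 CPM, 1542 had a centred log2 profile within a root mean square difference of 0.25 of that of Cdh1. There were 1318 such genes for Vim, 706 for Epcam, 482 for Zeb2 and 172 for Twist2. The nearest to Twist2 were Ptp4a3 (21.1, 319 and 167 CPM) and Pgls (49.7, 772 and 419 CPM), at differences of 0.02 and 0.03. For Zeb2 they were Clec3b (22.0, 85.4 and 43.5 CPM) and Loxl3 (65.3, 256 and 132 CPM). Nearest to Cdh1 were Ints10 and Eif4e2, to Epcam Pola1 and Ddx24, and to Vim Ube3c and Rap1gds1. Among the 10 genes themselves, the closest profiles were those of Epcam and Twist1, with a root mean square difference of 0.17, followed by those of Vim and Snai1, also at 0.17, and of Cdh1 and Snai2, at 0.19. These pairs joined genes of different roles, as most pairs of the 10 genes do with roles of 2, 2 and 6 genes.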

How the data were processed

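RNA-seq libraries (TruSeq mRNA, paired-end, 50 bases) were made from 3 untreated tumours, 1 each. The deposited values are estimated counts from Salmon, summed by gene symbol and without any scaling, per the file headers. STAR, SAMtools, Picard and build mm10 are named in the submitters' processing notes. Tool versions, the annotation release and the strand setting were not given in the sources used here.

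Estimated counts were rounded. edgeR 4.0.16 (R 4.3.3) kept genes with filterByExpr (minimum count 10, minimum total 15) and scaled the totals of kept genes by TMM, with factors of 1.48, 0.722 and 0.936. Log2 CPM used a prior count of 2. With 1 group there was no test. A gene was counted as apart when a tumour differed from both others by at least 2-fold in 1 direction, or when its highest and lowest tumours were at least 4-fold apart, and the counts were set beside those over all genes past the filter. The procedure was also run on simulated data with much less spread between libraries than these tumours have. That run does not show how often the calls err here. Positions, lengths and GC contents came from GENCODE M21 (GRCm38, also named mm10), which gave values for 97.1% of kept genes and all 10 members.

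The members, gene lists and marker lists were chosen with earlier results of these data known. Named beside the members were the 3 highest genes and the gene of largest range of each of 6 gene lists, genes of high level from the 10 marker lists, and the 2 genes most like a member. Rn18s-rs5 and genes overlapping a member stand outside this rule, and 1 gene that it takes is not reported here. Alternatives were other scalings (DESeq2 1.42.0), filters, prior counts and thresholds, removal of a GC and length trend, and each tumour left out. Markers of T cells (14.0, 21.5 and 28.9 CPM in sum over 5 genes, of which 3 passed the filter), adipocytes (282, 204 and 146 CPM over 5) and Schwann cells (28.9, 24.0 and 14.0 CPM over 5, of which 3 passed) were measured too. Cdh19, a Schwann cell marker, was at 0 in tumour 2. The 6 luminal markers summed to 1558, 1132 and 1761 CPM.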

Additional observations from a re-analysis of the deposited data

How the results depend on the processing

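The mean log2 ratio of Cdh1 to Vim ran from −1.59 to −2.01 with a tumour left out. A scaling of whole libraries cannot move this ratio, and it can move the mean levels only little, so their constancy under those alternatives says nothing of stability. The count of members with a 4-fold range, 1 (Twist2) as reported, was 2 with DESeq2 size factors and 2 with a mean CPM of at least 5, where Zeb2 joined, 3 with library totals (Epcam, Twist1 and Twist2) and 3 with the GC and length trend removed (Zeb2, Twist1 and Twist2). It was 0 without tumour 1 (1.09% of all genes), 1 without tumour 2 (18.3%) and 1 without tumour 3 (27.9%). The count at least 2-fold above both others in tumour 1, 0 as reported, was 3 with library totals (Epcam, Cdh2 and Twist1) and 1 with the trend removed (Twist1), and it ran from 1 without tumour 2 (Cdh2) to 2 without tumour 3 (Epcam and Twist1). The count below both, 1 as reported, was 2 with DESeq2 size factors, 2 with a mean CPM of at least 5 and 2 with the trend removed (Zeb2 and Twist2 in each), and it ran from 2 without tumour 2 to 3 without tumour 3, where Zeb1 joined. Neither count has a value without tumour 1. With tumour 2 or 3 left out, tumour 1 is compared with 1 other tumour only, which is a weaker limit than both others. The other alternatives left all 3 counts as reported. The shares over all genes also moved, from 22.1 to 40.4% above and from 20.7 to 10.5% below with library totals. With DESeq2 size factors they were 20.5 and 22.1%, and with a mean CPM of at least 5 they were 23.5 and 22.0%. They were 19.6 and 18.6% with the trend removed, 25.9 and 23.6% without tumour 2, and 31.6 and 27.7% without tumour 3. The share with a 4-fold range was 29.5% as reported, 29.1% with DESeq2 size factors and 32.0% with a mean CPM of at least 5. It was 39.3% with library totals and 24.8% with the trend removed. With a tumour left out, 4 mean levels, of Cdh1 and Snai2, moved by more than the gene's own SD. These genes had the smallest SDs of the 10, 0.11 and 0.22, so that limit was narrowest for them. Without tumour 1, the mean log2 CPM went from 7.18 to 6.87 for Cdh1 and from 3.12 to 2.71 for Snai2. That of Twist2, with an SD of 2.06, went from 3.49 to 4.35 and stayed within its limit. No paired analysis was possible because the labels give 1 group and no replicate numbers. Depth limits the factor genes and Cdh2 most, with 54 to 393 counts in tumours 2 and 3.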
